A study of Homo sapiens with 12 samples.

Results

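TRAIL, the death ligand TNFSF10, was given for 2 hours at 100 ng per ml to MDA-MB-231 cells that had been treated to resistance (TTR), and the transcripts of these cells were set against those of untreated TTR cells. MDA-MB-231 is a widely used human cell line of triple-negative breast cancer, mesenchymal in character. The comparison rests on 6 of the 12 arrays of the study, 3 arrays titled as TTR with TRAIL minus 3 titled as TTR alone. The other 6 arrays are parental MDA-MB-231 cells, 3 untreated and 3 given the same dose for the same 2 hours, and they enter where the responses of both lines are compared. Every row of the deposited table that maps to exactly 1 gene was considered, and for genes with several rows the row with the highest mean was kept, which gave 18417 genes of 33252 features. Values are log2 levels, so a difference of 1 is a factor of 2.

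The labels do not give the agent or schedule that made the TTR cells resistant, nor whether they are a pool or 1 clone, so they stand for 1 derivative of 1 line. The labels also do not say that the 3 arrays of a group came from separate cultures, so the p-values rest on array-to-array spread alone, which may be technical. Within a TTR group the arrays correlated at 0.991 to 0.995 over genes, against 0.984 to 0.991 between treated and untreated arrays. Array medians were 4.24 to 4.30 in untreated and 4.38 to 4.40 in TRAIL-treated TTR cells, a shift of 0.11, and the median change over all genes was -0.01 as deposited and -0.11 after each array was centred on its median. VIM, CD44, AXL, CAV1 and MSN, markers of this line, lay between 10.69 and 11.73 in all 6 TTR arrays and ZEB1 between 7.38 and 7.86, whereas SPARC, also on that list, was low at 3.85 to 4.21. The eighth, FN1 (fibronectin), was 9.05, 8.22 and 8.12 untreated and 9.46, 9.13 and 9.28 with TRAIL (0.83, adjusted p = 0.0468 by limma), and its call was lost under 9 alternatives (up to 0.185), among them 5 of the 6 fits without 1 TTR array, all but that without untreated array 1. CDH1, ESR1 and PTPRC, which mark epithelial, luminal and blood cells, did not exceed 3.85, and the summed level of the 8 luminal and epithelial markers was 37.51 to 38.64 without and 37.97 to 38.95 with TRAIL. KRT18 (10.41 to 10.57) and CD68 (8.95 to 9.23), on the epithelial and blood cell lists, were high. Intermediate on these lists were ERBB2 (5.63 to 6.02), GATA3 (4.92 to 5.04), EPCAM (4.04 to 4.35) and CD14 (4.03 to 4.47). On the fibroblast and endothelial list COL1A1 was highest, at 5.15 to 5.5.

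As background, TRAIL binds the death receptors TNFRSF10A and TNFRSF10B, which recruit FADD and caspase-8 to start apoptosis. The same receptors can also engage RIPK1 and TRAF proteins and switch on the kinases that free NF-kB and activate MAP kinases. NF-kB and the MAP kinase-driven factors SRF and AP-1 act on genes that need no prior protein synthesis, the immediate-early genes, and among their first products are the proteins that shut the same pathways off.

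TRAIL changed 1072 of the 18417 genes in TTR cells (5.82%, adjusted p under 0.05 by limma with Benjamini-Hochberg adjustment, as throughout). Of these, 602 rose (3.27%) and 470 fell (2.55%). The rises reached farther from 0 than the falls. At least 2-fold rises were made by 124 genes (0.673%) and at least 4-fold rises by 32. By contrast 0 genes fell 2-fold, and the largest fall was -0.83 ± 0.10. The median change was 0.64 among the genes that rose and -0.47 among those that fell. In 1063 of the 1072 called genes the 3 treated and 3 untreated values did not overlap, where 27.5% of all genes did not overlap. All 1072 moved the same way in each of the 3 same-numbered pairs of arrays. For the 1063 this follows from the lack of overlap, and it was not counted over all genes. With same-numbered TTR arrays as pairs (a replicate block), 2670 genes were called, 1122 higher and 1548 lower, and 1069 of the 1072 were among them.

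Both the count of calls and the balance of rises and falls depended on scaling and on single arrays. After centring, all 470 falls and 448 of the 602 rises remained called, and 1943 genes in all were lower, so that 18.7% of calls were rises against 56.2% as deposited. After quantile normalization of the deposited values, without centring, 47% were rises. Leaving out 1 TTR array gave 1443 calls without untreated array 1, 450 without untreated array 2, 542 without untreated array 3, 508 without TRAIL array 1, 379 without TRAIL array 2 and 693 without TRAIL array 3, and 332 genes (275 higher, 57 lower) were called in every such fit. Of the 124 genes that rose at least 2-fold, 122 were called in every such fit. By untreated level, 67 of 6731 genes under 4 rose and 8 fell, and 241 of 4614 genes between 4 and 6 rose and 68 fell. Between 6 and 8, 218 of 4445 genes rose and 242 fell, and at 8 or more 76 of 2627 rose and 152 fell.

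**Figure D1:**
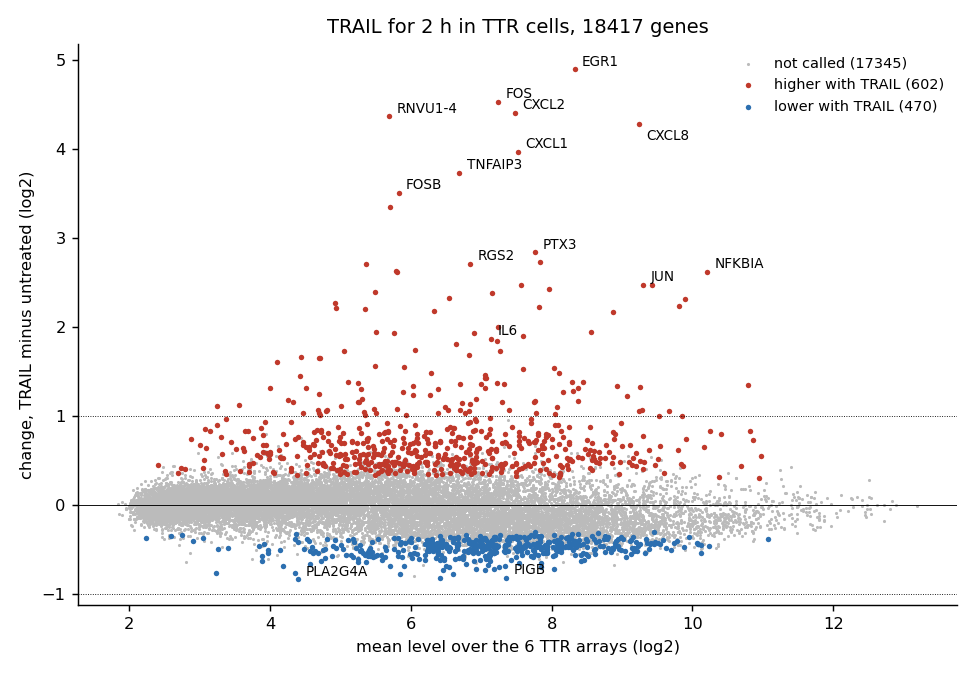
Change with TRAIL in TTR cells (log2, vertical) against the mean level over the 6 TTR arrays (log2, horizontal), 1 point per gene for 18417 genes. Red points are the 602 genes called higher and blue points the 470 called lower, and dotted lines mark a 2-fold change. The rises reach 4.90 (EGR1) and the falls end at -0.83 (PLA2G4A).

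The 25 largest rises were led by immediate-early factors, chemokines and a variant of the U1 small nuclear RNA. One gene from each of 4 lists, all among the 7 largest rises, is shown with the 250 bases before their RefSeq gene start (GRCh38.p14, read 5′ to 3′ along the gene's strand), because they stand for the groups that lead the response. These are EGR1 (chr5:138465229-138465478, plus strand), FOS (chr14:75278578-75278827, plus strand), CXCL2 (chr4:74099196-74099445, minus strand) and TNFAIP3 (chr6:137867009-137867258, plus strand). Capitals mark matches, on either strand, to GGANNTTCC (an NF-kB type site), TGACGT (the core of a cyclic AMP response element) and the CArG box bound by SRF.
EGR1: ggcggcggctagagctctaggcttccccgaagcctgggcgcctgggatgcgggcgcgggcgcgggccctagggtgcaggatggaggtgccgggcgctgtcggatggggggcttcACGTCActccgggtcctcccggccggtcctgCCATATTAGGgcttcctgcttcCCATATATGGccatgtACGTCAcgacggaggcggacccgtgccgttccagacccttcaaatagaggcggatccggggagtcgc
FOS: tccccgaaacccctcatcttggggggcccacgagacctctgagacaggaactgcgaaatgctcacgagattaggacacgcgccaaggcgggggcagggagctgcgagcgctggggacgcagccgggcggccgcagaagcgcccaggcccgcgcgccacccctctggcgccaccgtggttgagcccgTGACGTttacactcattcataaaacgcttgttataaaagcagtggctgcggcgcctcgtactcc
CXCL2: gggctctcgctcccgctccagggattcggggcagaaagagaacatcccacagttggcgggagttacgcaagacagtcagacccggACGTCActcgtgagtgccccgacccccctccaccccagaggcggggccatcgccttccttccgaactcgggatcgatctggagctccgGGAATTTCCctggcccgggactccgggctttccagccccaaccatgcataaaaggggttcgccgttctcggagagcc
TNFAIP3: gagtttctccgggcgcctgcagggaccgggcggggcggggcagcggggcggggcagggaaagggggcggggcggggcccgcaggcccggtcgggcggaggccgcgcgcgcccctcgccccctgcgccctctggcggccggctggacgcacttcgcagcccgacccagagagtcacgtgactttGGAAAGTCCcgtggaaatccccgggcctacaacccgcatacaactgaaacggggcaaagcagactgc
In EGR1 the CArG boxes CCATATTAGG and CCATATATGG began 105 and 83 bases before the start, and matches to TGACGT began 136 and 67 bases before it. FOS held TGACGT 64 bases before the start. CXCL2 held GGAATTTCC 77 bases before the start, and TNFAIP3 held GGAAAGTCC 67 bases before it. These are matches of letters only.

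EGR1, a zinc finger factor that SRF controls, made the largest rise. Its level was 5.82, 5.91 and 5.92 in the 3 untreated TTR arrays and 10.77, 10.90 and 10.67 in the 3 TRAIL arrays. The groups lay far apart, with a change of 4.90 ± 0.12 (± is the SE of the fit here and below, n = 3 arrays per group, a factor of 29.8, adjusted p = 2.14e-13). FOS, an AP-1 subunit, went from 5.21, 5.15 and 4.58 to 9.32, 9.66 and 9.54, a change of 4.53 ± 0.14 (adjusted p = 7.97e-12). Its lowest untreated value was in array 3, and no values overlapped. FOSB, a close relative, was 3.96, 3.96 and 4.31 without and 7.45, 7.75 and 7.56 with TRAIL, a change of 3.51 ± 0.13 (adjusted p = 3.35e-11).

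Chemokines that attract neutrophils followed. CXCL2 read 5.42, 5.03 and 5.36 untreated and 9.77, 9.93 and 9.34 with TRAIL, a change of 4.41 ± 0.15 (adjusted p = 2.32e-11). CXCL8 was already at 6.69, 7.06 and 7.55 in untreated TTR cells and reached 11.22, 11.57 and 11.35, a change of 4.28 ± 0.17 (adjusted p = 9.22e-11). CXCL1 went from 5.50, 5.29 and 5.83 to 9.30, 9.90 and 9.33, a change of 3.97 ± 0.17 (adjusted p = 2.42e-10), with TRAIL array 2 the highest. CXCL1, CXCL2 and CXCL3 are similar in sequence, and whether their probes cross-hybridise was not tested. Over the 19 chemokines on the list 6 rose (31.6%, against 3.27% of all genes), 0 fell and the median change was 0.01 against -0.01 over all genes. CCL20, which attracts dendritic cells and lymphocytes, was 3.22, 3.50 and 3.17 and 4.71, 5.30 and 4.70 (1.61 ± 0.24, adjusted p = 0.000783). CXCL3 changed by 1.16 ± 0.18 and CXCL10, an interferon-linked chemokine, by 0.84 ± 0.17 (adjusted p = 0.000853 and 0.00727). The same 6 members were called under all 6 fits without 1 TTR array.

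The NF-kB group was led by the inhibitors that end its signalling. TNFAIP3, the ubiquitin-editing enzyme A20, was 5.12, 4.75 and 4.60 in untreated and 8.65, 8.82 and 8.20 in treated arrays, a change of 3.73 ± 0.20 (a factor of 13.3, adjusted p = 2.66e-09). NFKBIA, which holds NF-kB in the cytoplasm, went from 9.13, 8.68 and 8.90 to 11.50, 11.62 and 11.44 (2.62 ± 0.11, adjusted p = 1.85e-10). NFKBIZ, a nuclear co-regulator of NF-kB, went from 6.83, 6.69 and 6.74 to 9.09, 9.34 and 9.10 (2.43 ± 0.10, adjusted p = 1.85e-10). In each of these the lowest treated value stood above the highest untreated value by more than the spread within either group. Smaller rises were seen in NFKBIE, another cytoplasmic inhibitor (0.82 ± 0.17), in NFKB2, the p100 precursor (0.81 ± 0.12), in BCL3, a nuclear partner of NF-kB dimers (0.77 ± 0.14), and in REL, a subunit (0.69 ± 0.12), with adjusted p from 0.00049 (NFKB2) to 0.00836 (NFKBIE). Of the 15 NF-kB subunits and inhibitors measured, 9 rose (60%, against 3.27% of all genes) and 0 fell. Their median was 0.50 against -0.01 over all genes. Smaller changes made up the other calls, and 6 to 8 members were called across the fits without 1 TTR array.

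Among 23 ubiquitin regulators and TRAF adaptors, 4 rose (17.4%, against 3.27% of all genes) and 0 fell (median 0.10). With the replicate block 7 rose, where 6.09% of all genes were higher. The 4 were TNFAIP3, TRAF1, an adaptor that binds TNF receptors, ZC3H12A, an RNase that cleaves cytokine messages, and TNIP1, which works with A20. TRAF1 went from 3.86, 3.77 and 3.88 to 6.21, 6.10 and 5.84 (2.22 ± 0.11, adjusted p = 2.13e-09). ZC3H12A went from 5.89, 5.96 and 5.96 to 7.80, 8.04 and 7.76 (1.93 ± 0.10, adjusted p = 2.66e-09), and TNIP1 by 0.49 ± 0.09 (adjusted p = 0.00563). TRAF2 and BIRC3 of this list were not among the genes with a row of their own here.

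Of 25 cytokines and colony-stimulating factors 7 rose (28%, against 3.27% of all genes) and 0 fell (median 0.16). PTX3, a secreted pattern recognition protein, went from 6.57, 6.19 and 6.28 to 9.29, 9.45 and 8.84 (2.84 ± 0.18, adjusted p = 3.25e-08). IL6 was tightly spread in both groups, 6.15, 6.20 and 6.24 and 7.95, 8.25 and 8.01 (1.87 ± 0.13, adjusted p = 1.51e-07). IL1B was 5.02, 4.68 and 4.45 and 6.65, 6.63 and 5.57 (1.57 ± 0.24, adjusted p = 0.000926), with TRAIL array 3 the lowest of the treated arrays by more than 1. IL1A, its neighbour on the chromosome, changed by 1.06 ± 0.25 (adjusted p = 0.0234) with the same array lowest at 4.72, and was not called after quantile normalization (0.0622), without untreated array 2 (0.0692) or 3 (0.0607) or without TRAIL array 1 (0.0922) or 2 (0.132). TNFSF9, a T cell costimulatory ligand, CSF1, which acts on macrophages, and CSF3, which acts on neutrophils, changed by 0.98 ± 0.11, 0.85 ± 0.10 and 0.83 ± 0.16 (adjusted p = 3.99e-05, 4.47e-05 and 0.00553).

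**Figure D2:**
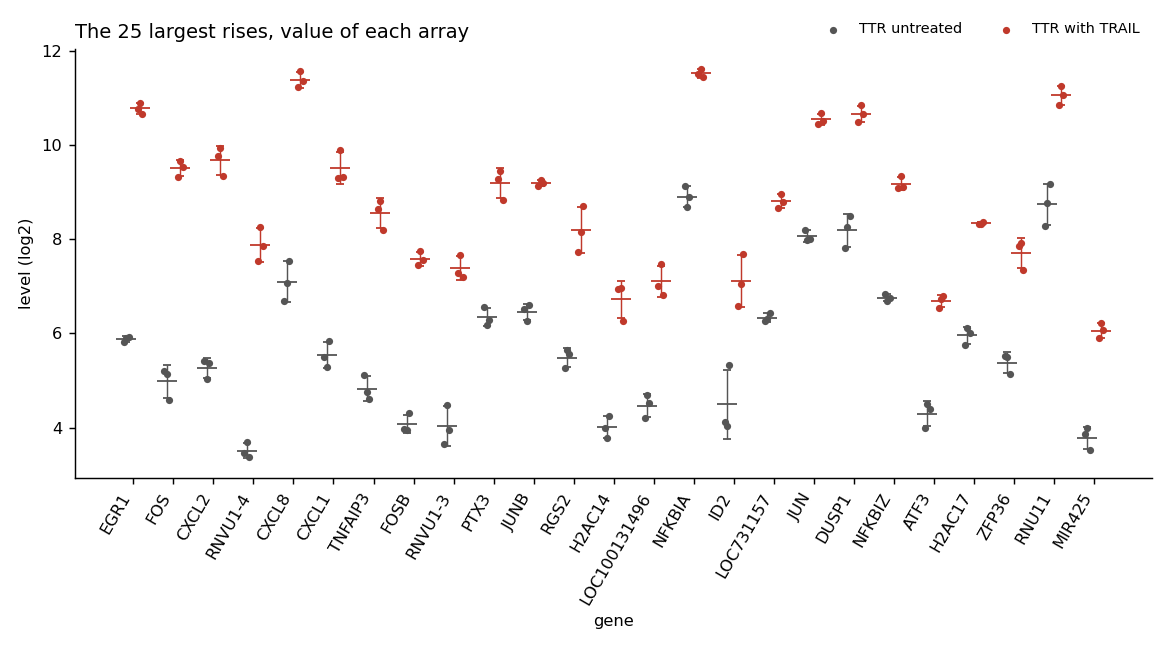
Level (log2) of the 25 genes with the largest rises in each of the 3 untreated (grey) and 3 TRAIL-treated (red) TTR arrays. Points are arrays, the horizontal tick is the group mean and the bar is 1 SD (n = 3). The 25 were taken from called genes whose treated and untreated values do not overlap, and ID2 has the widest untreated spread (4.03 to 5.33).

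AP-1 factors rose in 8 of 14 cases (57.1%, against 3.27% of all genes) and fell in 0 (median 0.45). JUN, the partner of FOS, was 8.21, 7.99 and 8.01 untreated and 10.44, 10.69 and 10.50 with TRAIL (2.48 ± 0.11, adjusted p = 4.67e-10). JUNB went from 6.52, 6.27 and 6.60 to 9.13, 9.26 and 9.19 (2.73 ± 0.10, adjusted p = 3.35e-11) and ATF3, a stress-responsive member, from 4.0, 4.50 and 4.40 to 6.54, 6.74 and 6.78 (2.39 ± 0.15, adjusted p = 2.6e-08). JUND, usually the constant member of the family, changed by 1.36 ± 0.11 (adjusted p = 1.01e-06). Smaller changes made up the other calls, and 6 or 7 members were called across the fits without 1 TTR array. In the EGR and KLF zinc finger family 7 of 18 rose (38.9%) and 0 fell (median 0.27). Besides EGR1, KLF4 changed by 1.06 ± 0.15, KLF6 by 1.04 ± 0.14 and KLF10 by 0.90 ± 0.09 (adjusted p = 0.000333, 0.000184 and 1.19e-05). Only 4 members of this family were called without TRAIL array 2.

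Of the other immediate-early genes, 28 measured members of a list of genes induced early in many cell types, 24 rose and 0 fell. This is 85.7% against 3.27% of all genes, with a median of 0.73. The list was written with earlier results of these data known, so the share is not independent support. Across fits without 1 TTR array, 19 to 24 were called. PLK3, a stress-activated kinase, went from 5.28, 5.25 and 5.18 to 7.42, 7.51 and 7.33 (2.18 ± 0.10, adjusted p = 2.66e-10). IER2, a small nuclear protein, was 6.42, 6.23 and 6.07 and 8.14, 8.32 and 8.27 (2.0 ± 0.11, adjusted p = 5.09e-09), and TRIB1, a pseudokinase, was 6.39, 5.93 and 5.63 and 7.78, 7.80 and 7.41 (1.68 ± 0.18, adjusted p = 1.91e-05). IRF1, a transcription factor of the interferon response that NF-kB also controls, changed by 1.43 ± 0.10 (adjusted p = 1.75e-07). SERTAD1, the orphan receptor NR4A2, the kinase SGK1 and the antiproliferative gene BTG1 changed by 1.31 ± 0.15, 1.19 ± 0.18, 1.01 ± 0.11 and 1.0 ± 0.11, with the largest adjusted p at 0.000916 (NR4A2). BTG2 had no row of its own here.

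Genes that restrain the signalling upstream rose beside them. DUSP1, a phosphatase that inactivates p38 and JNK, went from 7.81, 8.26 and 8.50 to 10.50, 10.85 and 10.65 (2.48 ± 0.17, adjusted p = 7.41e-08). DUSP5 and DUSP6, which act on ERK, changed by 1.17 ± 0.11 and 0.66 ± 0.09 (adjusted p = 3.23e-06 and 0.000292). Of 18 MAP kinase brakes 6 rose (33.3%, against 3.27% of all genes) and 0 fell (median 0.12), and 3 were called without untreated array 2. After centring or with the block 2 were lower, where 10.6% and 8.41% of all genes were lower. ZFP36, which destabilises messages with AU-rich elements, was 5.51, 5.50 and 5.13 untreated and 7.86, 7.92 and 7.34 treated (2.33 ± 0.17, adjusted p = 1.37e-07), and ZFP36L2, its relative, changed by 0.92 ± 0.14 (adjusted p = 0.000852). Of the 8 SOCS cytokine brakes SOCS1 and SOCS3 rose, by 1.09 ± 0.13 and 0.68 ± 0.11 (adjusted p = 4.82e-05 and 0.00146), and 0 fell. RGS2, which shortens G-protein signals, went from 5.26, 5.64 and 5.57 to 7.73, 8.16 and 8.71 (2.71 ± 0.20, adjusted p = 1.83e-07), with untreated array 1 and TRAIL array 1 the lowest of their groups. Altogether 8 of 19 G-protein regulators rose (42.1%) and 0 fell (median 0.07). Among those that rose were the small GTPases RND1 (1.67 ± 0.11), RASD1 (1.47 ± 0.14), RRAD (1.45 ± 0.13) and RHOB (1.42 ± 0.11). The largest adjusted p of these 4 was 4.24e-06.

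Regulators of differentiation also moved. ID2, a dominant-negative helix-loop-helix protein, was 4.12, 4.03 and 5.33 in untreated and 6.59, 7.05 and 7.69 in treated arrays, with array 3 the highest of each group (2.62 ± 0.30, adjusted p = 4.64e-05). ID1 changed by 0.87 ± 0.14 (adjusted p = 0.000998). Of 16 helix-loop-helix factors and Notch effectors 5 rose (31.3%, against 3.27% of all genes) and 0 fell (median 0.33). With the block 8 rose, while 2 were called without untreated array 2 and 3 without TRAIL array 1, 2 or 3. SNAI1, the repressor of E-cadherin, went from a tight 4.24, 4.25 and 4.24 to 6.11, 6.62 and 6.61 (2.21 ± 0.16, adjusted p = 1.75e-07). SNAI1 and FN1 were the 2 called of 12 EMT factors and cadherins (16.7%, against 3.27% of all genes, median 0.05). BAMBI, a decoy receptor that limits TGF-beta signals, changed by 1.10 ± 0.13 (adjusted p = 4.77e-05). It was the 1 member called of 25 on the TGF-beta and BMP list (4%, near the 3.27% of all genes that rose). Of that list 5 were lower after centring and 3 with the block, where 10.6% and 8.41% of all genes were lower.

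**Figure D3:**
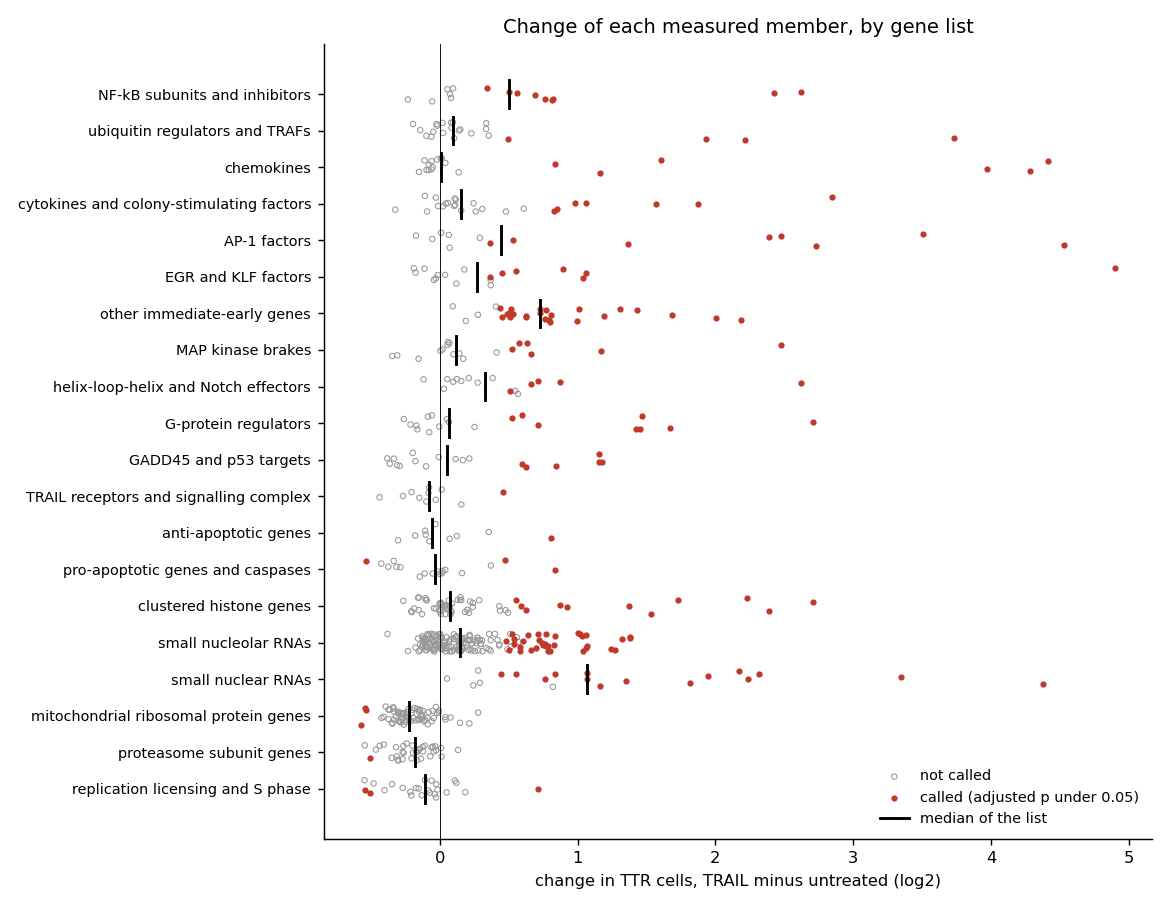
Change with TRAIL in TTR cells (log2, horizontal) for every measured member of 20 gene lists. Filled points are called genes, open points are not called, and the black bar is the median of the list. The medians of the small nuclear RNAs (1.07), the other immediate-early genes (0.73) and the NF-kB list (0.50) stand highest, and that of the mitochondrial ribosomal protein genes is -0.23.

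Among the TRAIL receptors and their signalling complex, of 11 members measured 1 rose (9.09%, against 3.27% of all genes) and 0 fell, with a median of -0.08. TNFRSF10D, a decoy receptor that binds TRAIL without a full death domain, was 7.21, 6.95 and 7.01 and 7.56, 7.61 and 7.37 (0.46 ± 0.11, adjusted p = 0.0189). It was not called without untreated array 2 (0.095) or 3 (0.0684) or without TRAIL array 1 (0.0786) or 2 (0.105). The death receptors TNFRSF10A (5.27, 4.98 and 5.26 untreated, 5.30, 5.06 and 5.06 treated) and TNFRSF10B (7.56, 7.40 and 7.18, 7.31, 7.36 and 7.03) overlapped between groups, with changes of -0.03 ± 0.11 and -0.15 ± 0.13 (adjusted p = 0.93 and 0.575). CASP8, the initiator caspase, changed by -0.08 ± 0.10, its adaptor FADD by -0.08 ± 0.12, its relative CASP10 by 0.16 ± 0.17 and its inhibitor CFLAR by 0.01 ± 0.09, and all 4 overlapped. FAS (-0.10 ± 0.10), TRADD (-0.20 ± 0.15) and the soluble decoy TNFRSF11B (-0.27 ± 0.13) were not called. TNFSF10, the gene of the ligand itself, was 5.89, 5.13 and 5.60 untreated and 5.43, 4.74 and 5.15 treated (-0.44 ± 0.19, adjusted p = 0.19). It was lower in each of the 3 same-numbered pairs, and with the replicate block its adjusted p was 0.0101. Under 21 of 24 alternatives it was not called (up to 0.561). SLC26A2, the sulfate transporter named in the title of the study, was 6.72, 6.64 and 6.72 untreated and 6.12, 6.28 and 6.49 treated (-0.40 ± 0.16, adjusted p = 0.152). Its groups did not overlap, as in 27.5% of all genes (16.3% lower). Its adjusted p was 0.0258 with the block and 0.0417 after centring, but it was not called under 18 of 24 alternatives (up to 0.426).

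Among genes of cell death, MCL1, a short-lived survival protein of the BCL2 family, went from 10.17, 9.98 and 9.88 to 10.80, 10.89 and 10.75 (0.80 ± 0.10, adjusted p = 8.39e-05) and was the 1 called of 10 anti-apoptotic genes. BCL2L11, the death-promoting BIM, also rose, from 5.72, 5.29 and 5.51 to 6.22, 6.56 and 6.25 (0.84 ± 0.13, adjusted p = 0.00107). BID, the substrate that links caspase-8 to mitochondria, fell from 8.05, 8.22 and 8.26 to 7.61, 7.55 and 7.77 (-0.54 ± 0.12, adjusted p = 0.0135), a call lost without untreated array 2 (0.0652) or 3 (0.0587) and without TRAIL array 1 (0.0582) or 2 (0.083). Of 18 pro-apoptotic genes and caspases 2 rose and 1 fell (median -0.03), where 3.27% of all genes rose and 2.55% fell. After centring 1 was higher and 4 lower (2.43% and 10.6% of all genes), and with the block 3 each way (6.09% and 8.41%). The other gene that rose as deposited was PMAIP1, at 0.47. It was not called after centring (0.0515) nor without untreated array 1 (0.0633) or 2 (0.0936), nor without TRAIL array 1 (0.0532), 2 (0.0692) or 3 (0.109). Of 18 GADD45 genes and p53 targets 6 rose (33.3%) and 0 fell (median 0.05), with 6 higher and 4 lower both after centring and with the block. GADD45A, GADD45B and GADD45G were among the 6, and whether p53 took part was not tested. GADD45A, GADD45B and CDKN1A, which arrest the cell cycle or sense stress, changed by 1.18 ± 0.12, 1.15 ± 0.11 and 1.15 ± 0.13 (adjusted p = 1.57e-05, 3.21e-06 and 4.01e-05). In bulk samples fewer cells of a kind and less RNA per cell cannot be told apart.

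Stress and inflammatory enzymes moved in part. PTGS2, the inducible cyclooxygenase, was 6.20, 6.01 and 6.72 and 7.90, 8.28 and 8.28 (1.85 ± 0.16, adjusted p = 1.67e-06), while PLA2G4A, which supplies its substrate arachidonic acid, made the largest fall. ICAM1, a ligand for leukocyte integrins, went from 5.47, 5.47 and 5.69 to 7.31, 6.84 and 6.94 (1.48 ± 0.18, adjusted p = 6.08e-05). DDIT3 and PPP1R15A, effectors of the integrated stress response, changed by 1.49 ± 0.16 and 1.34 ± 0.13 (adjusted p = 2.62e-05 and 5.53e-06). Of 20 members of that list 3 rose (15%, against 3.27% of all genes) and 0 fell (median 0.05). After centring 3 were higher and 4 lower (2.43% and 10.6% of all genes). With the block 4 were higher and 3 lower (6.09% and 8.41%). MT1X was the 1 that rose of 9 metallothioneins (11.1%, against 3.27% of all genes), by 0.68 ± 0.11 (adjusted p = 0.00133). ADM and PFKFB3 were the 2 that rose of 24 hypoxia and glycolysis genes (8.33%), by 1.10 ± 0.18 and 0.72 ± 0.10 (adjusted p = 0.00141 and 0.000337). Of 18 NRF2 and glutathione genes 0 were called. The smallest p-values were those of ME1 (-0.48 ± 0.16, adjusted p = 0.09) and PGD (-0.30 ± 0.11, adjusted p = 0.113), which with the block were 0.0133 and 0.0408. These 2 genes were not called under 16 and 17 of 24 alternatives (up to 0.302 and 0.278). Of 26 interferon-stimulated genes 2 rose and 2 fell (7.69% each way, against 3.27% and 2.55% of all genes). IRF1 and IRF7 (0.60 ± 0.11, adjusted p = 0.0038) rose. IFIT5 (-0.57 ± 0.09, adjusted p = 0.00101) and OAS2, a sensor of double-stranded RNA, fell. The OAS2 call at -0.44 ± 0.10 was lost without untreated array 3 (0.0609) and without TRAIL array 2 (0.0997) or 3 (0.0538).

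Of 20 genes of small nuclear RNAs, the RNA parts of the spliceosome, 15 rose (75%, against 3.27% of all genes) and 0 fell. The median was 1.07, and 11 to 14 were called across fits without 1 TTR array. Many of the 15 are near-identical variant U1 genes, so the 15 are not separate results. RNVU1-4, a variant U1 gene, was 3.46, 3.69 and 3.38 untreated and 7.54, 8.25 and 7.85 treated (4.37 ± 0.16, adjusted p = 3.35e-11), and RNVU1-3 was 3.66, 4.49 and 3.95 and 7.28, 7.67 and 7.19 (3.35 ± 0.21, adjusted p = 3.19e-08). The RNAs of the minor spliceosome rose too: RNU11 went from 8.29, 8.76 and 9.17 to 10.84, 11.26 and 11.06 (2.32 ± 0.18, adjusted p = 5.28e-07), RNU12 by 1.81, RNU4ATAC by 1.35 and RNU6ATAC by 1.07. Of the major spliceosome, RNU4-1 (0.83, adjusted p = 0.0314), RNU5F-1 (0.76, 0.0239) and RNU5E-1 (0.56, 0.0428) rose. Each lost its call without TRAIL array 2 and under 2 or more other alternatives (up to 0.127, 0.108 and 0.132). RNU5E-1 was lost after centring (0.0636), after quantile normalization and in every fit without 1 TTR array except that without untreated array 3. The 5 not called were all of the major spliceosome, with overlapping values. RNU5D-1 changed by 0.82 (adjusted p = 0.267), RNU4-2 by 0.29 (0.706), RNU2-1 by 0.28 (0.291), RNU5B-1 by 0.24 (0.683) and RNU5A-1 by 0.05 (0.925). These small nuclear RNAs other than the variant U1 genes and RNU11, and MIR21, MIR23A, MIR24-2 and MIR27A, were chosen for naming after their values were seen. Untreated array 1 was the lowest of its group for RNU11, RNU12, RNU4ATAC, RNU6ATAC, RNU4-1 and RNU2-1. Variant U1 genes are near-identical copies, and the features cannot be taken to separate them. Of 173 small nucleolar RNAs, guides for modification of ribosomal RNA, 35 rose (20.2%) and 0 fell (median 0.14); 22 were called without untreated array 2, 22 without TRAIL array 2 and 23 without TRAIL array 3. SNORD12C (1.38 ± 0.14) and SNORD75 (1.38 ± 0.16) rose most (adjusted p = 8.76e-06 and 3.93e-05). SNORD75 belongs to the longest run of neighbouring genes that rose, 8 genes from SNORD81 to ZBTB37, and snoRNAs are cut from introns, so a feature may read the host transcript.

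Clustered histone genes rose in 11 of 60 cases (18.3%, against 3.27% of all genes) and fell in 0 (median 0.08). H2AC14 was 4.0, 3.79 and 4.25 and 6.95, 6.96 and 6.26 (2.71 ± 0.27, adjusted p = 7.37e-06), with TRAIL array 3 the lowest treated. H2AC17 went from 5.75, 6.12 and 6.0 to a tight 8.33, 8.33 and 8.37 (2.39 ± 0.11, adjusted p = 5.39e-10), and H2AC11 and H3C3 changed by 2.23 ± 0.11 and 1.73 ± 0.20 (adjusted p = 7.7e-10 and 4.35e-05). Members of this family are similar in sequence, and cross-hybridisation was not tested. Long non-coding RNAs known only by locus were also among the largest rises, LOC100131496 (2.64 ± 0.20) and LOC731157 (2.48 ± 0.11), with adjusted p = 2.3e-07 and 2.04e-10.

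Of 173 microRNA genes 9 rose (5.2%, against 3.27% of all genes) and 1 fell, with 15 higher under the block, where 6.09% of all genes were higher. These shares are near those of all genes. The mature sequences of the 4 with the largest rises are shown from RefSeq (GRCh38.p14), with the seed, bases 2 to 8, in capitals. Only the products listed in the sequence table are printed.
hsa-miR-425-3p: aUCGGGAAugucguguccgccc
hsa-miR-27a-3p: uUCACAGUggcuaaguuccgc
hsa-miR-27a-5p: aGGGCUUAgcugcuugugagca
hsa-miR-23a-3p: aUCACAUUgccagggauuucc
hsa-miR-23a-5p: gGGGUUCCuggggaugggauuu
hsa-miR-21-5p: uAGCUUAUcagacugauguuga
These products lie at chr3:49020159-49020180 (miR-425-3p, minus strand), chr19:13836447-13836467 and chr19:13836487-13836508 (miR-27a-3p and miR-27a-5p, minus strand), chr19:13836595-13836615 and chr19:13836630-13836651 (miR-23a-3p and miR-23a-5p, minus strand) and chr17:59841273-59841294 (miR-21-5p, plus strand). No seed was shared between them. The array features read the gene region, so the primary transcript and the mature product cannot be told apart. MIR425 was 3.85, 3.98 and 3.53 untreated and 5.90, 6.22 and 6.06 with TRAIL (2.27 ± 0.16, adjusted p = 1.53e-07). MIR21 went from 8.70, 8.13 and 8.93 to 10.04, 9.96 and 9.75, a change of 1.33 (adjusted p = 0.000178). MIR27A (1.37) and MIR23A (1.34) are neighbours in 1 cluster (adjusted p = 0.000289 and 0.000154). MIR24-2, the third of that cluster, changed by 0.94 (adjusted p = 0.027), a call lost after quantile normalization and without untreated array 2 or 3 or TRAIL array 1 or 2 (up to 0.118).

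Each fall was under 2-fold. Among the 15 largest, PLA2G4A went from 4.74, 4.85 and 4.86 to 4.10, 3.92 and 3.93 (-0.83 ± 0.10, a factor of 1.78, adjusted p = 0.000102). PIGB, an enzyme of GPI anchor synthesis, was 7.56, 7.79 and 7.96 and 6.81, 7.01 and 7.03 (-0.82 ± 0.11, adjusted p = 0.000163), and PIGK, part of the complex that attaches the anchor, 7.49, 7.68 and 7.45 and 6.88, 6.72 and 6.87 (-0.72 ± 0.14, adjusted p = 0.00568). SRR, serine racemase, was 6.60, 6.88 and 7.0 and 6.07, 6.02 and 5.94 (-0.82 ± 0.12, adjusted p = 0.000406). SDR42E1, a dehydrogenase family member, was 7.40, 7.39 and 7.49 against 6.67, 6.67 and 6.75 (-0.73 ± 0.10, adjusted p = 0.000375). KLHL8, an adaptor of a ubiquitin ligase, MRS2, the magnesium channel of mitochondria, and TMEM38B, a cation channel of the endoplasmic reticulum, changed by -0.77 ± 0.14, -0.70 ± 0.12 and -0.70 ± 0.14 (adjusted p = 0.00277, 0.0025 and 0.007). TTC39C, TMEM254 and LMBRD2 changed by -0.73 ± 0.14, -0.72 ± 0.13 and -0.69 ± 0.12. The 15 were taken from called genes whose treated and untreated values did not overlap, so the lack of overlap was a condition of entry.

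Of the 15, 4 were not called without certain arrays. NIPSNAP3A (-0.78 ± 0.16) was lost without untreated array 2 (adjusted p = 0.0593) and without TRAIL array 1 (0.0559) or 2 (0.0513). The amino acid transporter SLC38A4 (-0.76 ± 0.15) was lost without TRAIL array 2 (0.0517), and so was the pseudogene OR52K3P (-0.76 ± 0.16, 0.0697). RWDD2B (-0.71 ± 0.15) was lost without untreated array 2 (0.0738) or 3 (0.0538) and without TRAIL array 2 (0.0567).

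**Figure D4:**
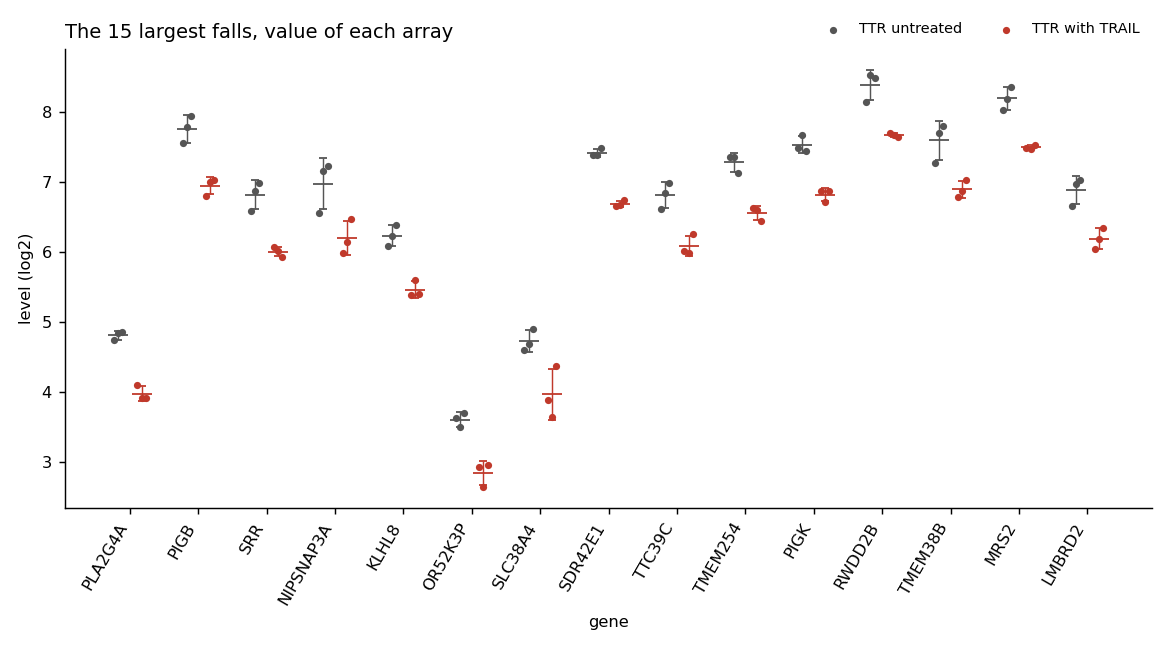
Level (log2) of the 15 genes with the largest falls in each of the 3 untreated (grey) and 3 TRAIL-treated (red) TTR arrays. Points are arrays, the horizontal tick is the group mean and the bar is 1 SD (n = 3). The 15 were taken from called genes whose treated and untreated values do not overlap, and the changes run from -0.83 (PLA2G4A) to -0.69 (LMBRD2).

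Housekeeping lists held few called genes as deposited, and their counts turned on scaling. Over all genes 2.55% were lower as deposited, 10.6% after centring and 8.41% with the block. Of 73 mitochondrial ribosomal protein genes 3 fell (4.11%) and 0 rose (median -0.23), with 28 lower after centring, 16 with the block, 10 without untreated array 1, 9 without parental TRAIL array 2, 5 without parental TRAIL array 3, and 1 in each fit that left out TTR untreated array 2, TTR untreated array 3, TTR TRAIL array 1 or TTR TRAIL array 2. Of these, MRPL44 was called in every fit (-0.54 ± 0.10, adjusted p = 0.00328). Of 77 respiratory chain genes 2 fell (median -0.14), NDUFA9 in every fit (-0.49 ± 0.09, adjusted p = 0.00491), with 14 lower after centring, 14 with the block, and 1 to 7 across the fits without 1 TTR array. Of 36 proteasome subunit genes 1 fell (median -0.18), with 12 lower after centring and 10 with the block. Of 65 cytosolic ribosomal protein genes 1 rose and 0 fell (median 0.01). Of 25 genes of replication licensing and S phase GINS4 rose (0.71 ± 0.09, adjusted p = 0.000106) and GINS2 fell (-0.54 ± 0.11, adjusted p = 0.00916), although both belong to 1 complex, and GINS2 was lost without untreated array 2 (0.0525). RFC4, a subunit of the clamp loader, also fell (-0.51 ± 0.13, adjusted p = 0.0321) and was lost after quantile normalization (0.0521) and in every fit without 1 TTR array except that without untreated array 1 (up to 0.11). That list had 5 lower after centring and 6 with the block. Of 29 genes of mitosis and the spindle checkpoint 1 rose, with 3 lower after centring.

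The same dose was given to parental cells, and the difference between the changes of both lines was tested in the same fit. Over all genes 6852 differed (37.2%), 4224 above 0 (22.9%) and 2628 below 0 (14.3%). Of the 602 genes that rose in TTR cells the change was smaller than in parental cells for 378, larger for 17 and not called different for 207. Of the 470 that fell, 410 had a difference above 0, 4 below 0 and 56 were not called. A tag in the sample descriptions also separates the lines, and its meaning, which the labels do not give, cannot be told apart from theirs. The parental array medians moved by 0.29 with TRAIL, and after centring 80.9% of called differences were above 0 against 61.6% as deposited.

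Among the 124 genes that rose at least 2-fold in TTR cells, 105 rose less there than in parental cells. FOS changed by 6.17 in parental and 4.53 ± 0.14 in TTR cells, a difference of -1.64 (adjusted p = 1.07e-05). CXCL2 changed by 5.86 in parental cells (difference -1.45, adjusted p = 6.16e-05) and CXCL8 by 5.44 (difference -1.16, adjusted p = 0.00123). Wider gaps were also seen, in SNAI1 of the 124 and in HSPA2 and GADD45G, which rose less than 2-fold in TTR cells. HSPA2, a heat shock chaperone, changed by 4.23 in parental and 0.72 ± 0.12 in TTR cells, SNAI1 by 5.64 and 2.21 ± 0.16, and GADD45G by 4.34 and 0.84 ± 0.18, the last not called in TTR cells without untreated array 2 (0.0639).

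For 17 of the 124 the difference was not called, IL6, ICAM1, TRAF1, IL1B and EGR1 among them. IL6 changed by 1.78 in parental and 1.87 ± 0.13 in TTR cells, a difference of 0.09 with a 95% interval from -0.31 to 0.49 (adjusted p = 0.755). ICAM1 differed by -0.11 (-0.64 to 0.42, adjusted p = 0.765) and TRAF1 by 0.32 (-0.02 to 0.66, adjusted p = 0.138, and 0.0206 after centring). IL1B differed by 0.64 (-0.09 to 1.37, adjusted p = 0.163), and was called without TRAIL array 3 of TTR cells (0.00659) and with the block within line (0.0341). EGR1 differed by -0.38 (-0.73 to -0.03, adjusted p = 0.0847), and by the same test 0.0392 with the block within line, 0.0347 without parental untreated array 2 and 0.0244 without parental TRAIL array 3. These intervals do not show that the lines respond alike.

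Only 21 genes called in TTR cells moved farther from 0 there with the difference called, 17 higher and 4 lower. TNFAIP3 was one, at 3.73 ± 0.20 in TTR and 3.0 in parental cells (difference 0.73, adjusted p = 0.0488), but the call was at the threshold. It was lost after quantile normalization (0.186) and in 8 of the 12 fits without 1 array. In the parental line these left out untreated array 2 (0.116), untreated array 3 (0.0906), TRAIL array 2 (0.125) and TRAIL array 3 (0.112). In TTR cells they left out untreated array 2 (0.0927), untreated array 3 (0.112), TRAIL array 1 (0.0957) and TRAIL array 2 (0.13). ETS1, a transcription factor, rose in TTR cells (0.49 ± 0.10, from 9.03, 8.86 and 8.67 to 9.37, 9.35 and 9.31) and fell in parental cells (-0.34), a difference of 0.82 (adjusted p = 0.00022) that was called under every alternative. TIFA, an adaptor that binds TRAF6, changed by 0.76 ± 0.12 in TTR and 0.15 in parental cells (difference 0.61, adjusted p = 0.0079, also called under every alternative). After centring 36 genes met the same rule, 12 of them shared with the 21.

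**Figure D5:**
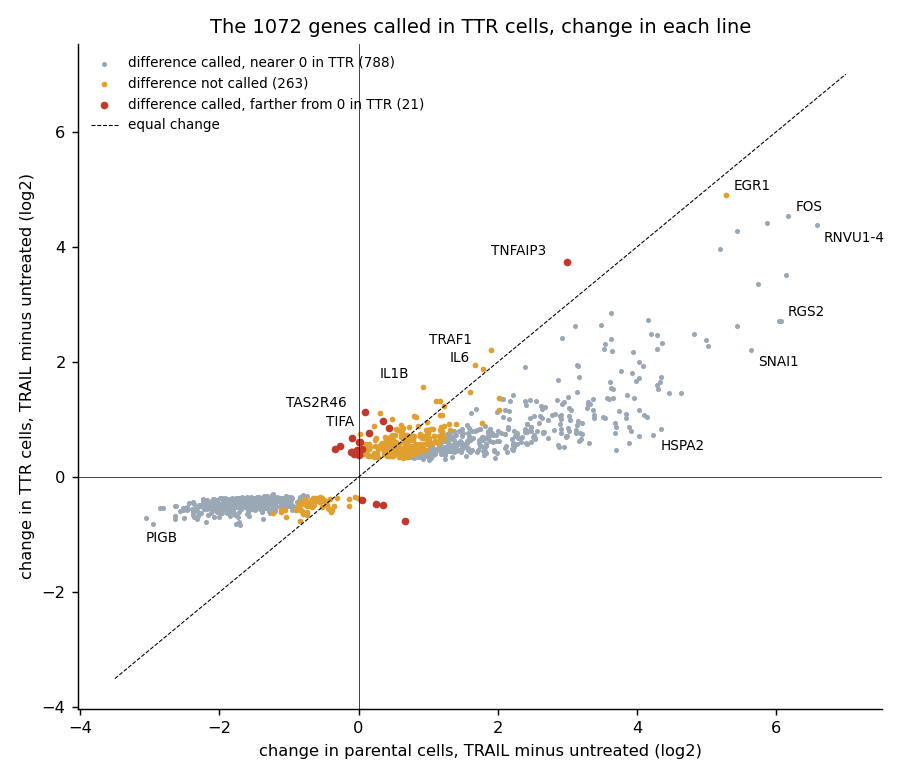
Change with TRAIL in TTR cells (log2, vertical) against the change in parental cells (log2, horizontal) for the 1072 genes called in TTR cells. The dashed line marks equal change. Most rises lie below the line and most falls above it, nearer 0 in TTR cells, 21 genes (red) lie farther from 0 in TTR cells, and 263 (orange) had no called difference.

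Promoter letters were counted over the 250 bases before the gene start of 13770 protein-coding genes tested here, of 14237 tested genes with a RefSeq entry. GGANNTTCC occurred in 3.91% of all of them, in 6.11% of the 409 that rose, in 16.2% of the 74 that rose at least 2-fold and in 2.9% of the 379 that fell. TGACGT, chosen after the promoters were seen, occurred in 8.81%, 16.4%, 21.6% and 9.76% of the same sets, and TGACGTCA, which holds it, in 2.4%, 5.87%, 6.76% and 1.85%. The AP-1 motif TGANTCA occurred in 4.89%, 3.18%, 4.05% and 2.64%, and the CArG box in 1.19%, 1.22%, 2.7% and 0.528%. GGANNTTCC was present in 5 of the 6 chemokines that rose (CXCL8, CXCL1, CXCL3, CXCL2 and CXCL10), and in NFKBIA, NFKBIZ and REL among the 7 NF-kB subunits and inhibitors that rose and have an entry. It was found in 0 of the 5 EGR and KLF factors and 0 of the 7 AP-1 factors that rose and have an entry. Motifs were searched on both strands, no test was made, and the shares describe these windows only.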

How the data were processed

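RNA was measured on 1-colour Affymetrix arrays. The deposited values are log2 levels made by the authors with RMA in Affymetrix Power Tools, per the submitters' processing notes; the sources used here give no version, setting or genome build. RMA places each array on a common scale with no external RNA standard. No detection measure was used, so low levels may be background. Of 33252 features, 19460 named 1 gene (1754 several, 12038 none), and 769 genes had more than 1.

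All 12 arrays were fitted with limma 3.58.1 in R 4.3.3 (group means, no block, 8 residual and 7.87 prior degrees of freedom), two-sided, with Benjamini-Hochberg adjustment over 18417 genes. An exact permutation of 3 against 3 arrays was not used. On simulated data for TRAIL in TTR cells over 18417 genes, 27 of 50 genes changed by 0.5 (log2) were recovered, and 50 of 50 each at 1, 2 and 4, with 14 false calls. The simulated noise was independent between genes and arrays. It held no shift of array medians, no shared deviation of same-numbered arrays and no parental response, so these counts do not carry over to the real arrays.

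The labels number the replicates but do not say that like numbers are pairs. Deviations of same-numbered TTR arrays correlated at 0.322, 0.146 and 0.395, and those of unlike-numbered ones at -0.344 to 0.055. In parental cells the values were 0.107, 0.056 and 0.059, and -0.097 to 0.032 for unlike numbers. The block rests on a pairing read from these same values, so it is an alternative and the main fit leaves it out. The comparison, the 43 gene lists and the rules were chosen with earlier results of these data known. Named genes were the 25 largest rises and 15 largest falls among called genes whose treated and untreated TTR values did not overlap. To these were added up to 8 called members per list (2 if none), the TRAIL receptor list and SLC26A2. The 10 smallest p-values of the difference and up to 15 genes farther from 0 in TTR cells completed the set. Of the 201 named, values are given mainly for the 123 called under every alternative. Alternatives were scaling, blocks, array weights, prior, features, filter and leave-one-out; those joining the block or the TTR-only fit with centring were chosen after seeing the data. Figures used matplotlib 3.10.9 in Python 3.11.15.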

Additional observations from a re-analysis of the deposited data

Results flagged for a closer look

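The TRAIL effect differed between the lines by the test of the difference itself (limma, adjusted over all genes, n = 3 arrays per group) for the following genes, the 10 with the smallest p-values among genes called in TTR cells and 15 that moved farther from 0 in TTR cells. In 9 of the first 10 the rise was smaller in TTR cells. The difference (TTR change minus parental change, log2) was -3.29 for the histone gene H4C9 and -3.22 for RNF151, and -3.51 for the chaperone HSPA2. It was -2.58 for GADD45B, -3.30 for SNORD61, -3.02 for the cytokine brake SOCS1 and -2.61 for the histone gene H2AC17. The small GTPases RASD1 and RRAD differed by -3.16 and -3.01. STRADB, a pseudokinase partner of LKB1, fell less in TTR cells, a difference of 1.98. All 10 differences were called under every alternative.

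Farther from 0 in TTR cells and higher were ETS1 (0.82), the signalling adaptors IRAK2 (0.81) and TIFA (0.61), the A20 partner TNIP1 (0.45), CSF1 (0.42) and the DNA sensor CGAS (0.49). The same held for CLK4 (0.55), a kinase of splicing factors, PHACTR4 (0.60), BCOR (0.54), the taste receptor gene TAS2R46 (1.03) and the olfactory receptor loci OR4F15 (0.62) and OR4F13P (0.77). Lower in TTR cells against a positive parental change were OR52K3P (-1.43), LOC442028 (-0.84) and SESN3 (-0.71), a sestrin of the stress response. Of these 15 differences, those not called under some alternative were PHACTR4 (adjusted p = 0.121), TNIP1 (0.171), CSF1 (0.377) and CGAS (0.245) after quantile normalization, CLK4 with the mean of all features (0.212), and OR4F15 without parental TRAIL array 2 (0.0514) or TTR TRAIL array 2 (0.0586). CSF1 was also lost in the fits that left out parental untreated array 2 (0.0516), parental untreated array 3 (0.0669), parental TRAIL array 2 (0.0593), TTR untreated array 2 (0.0736), TTR TRAIL array 2 (0.0521) and TTR TRAIL array 3 (0.053). CGAS was also lost in the fits that left out parental untreated array 2 (0.086), parental TRAIL array 2 (0.0581), TTR untreated array 2 (0.0538), TTR untreated array 3 (0.0782), TTR TRAIL array 1 (0.0707) and TTR TRAIL array 2 (0.0678).

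The change within TTR cells itself was not called under at least 1 alternative for 9 of these genes, with the largest adjusted p over the alternatives at 0.0697 for OR52K3P, 0.0771 for IRAK2, 0.177 for LOC442028, 0.167 for SESN3, 0.127 for CLK4, 0.0635 for PHACTR4, 0.151 for BCOR, 0.135 for CGAS and 0.118 for RNF151.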

How the results depend on the processing

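Against 1072 calls for TRAIL in TTR cells, centring gave 2391, leaving the parental TRAIL arrays out 1709, array weights 3199, the TTR groups alone with centring 2932 and a 2-fold minimum 124. With the replicate block, from the pairing of same-numbered arrays, the counts were 2670 (TTR groups alone), 1682 (within line, all 12 arrays) and 4598 (TTR groups alone with centring). Fits without 1 array gave 379 to 1487. Quantile normalization (956), the TTR groups alone (1312), a trended prior (993), mean features (1083), the dimmest genes left out (1197) and every feature (1558 of 33252, 77.5% of them higher) stayed within 1.5 times; the cause of the moves was not tested. The 6852 differences between lines stayed within 1.5 times (6008 to 6912 without 1 array) except with a 2-fold minimum (2099). Of the 182 named genes called, 123 were called under every alternative, 59 were lost under at least 1 and 0 reversed. Among the named genes, the block in the TTR groups alone added calls for TNFSF10, SLC26A2, ME1 and PGD, with centring also for TNFRSF11B, and the block within line added TNFSF10, SLC26A2 and the differences of EGR1 and IL1B; it changed no other call of a named gene. With 3 arrays per group, small changes are under-counted.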
